A study of Mus musculus with 9 samples.

Results

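The subunits of the mitochondrial respiratory chain and ATP synthase were compared between ovaries of WT and ERβKO mice. The genes were chosen by their names, as rows of the count table named Nduf (a, b, c, s or v), Sdha to Sdhd, Uqcr, Cox4 to Cox8, Atp5, or mt-Nd, mt-Co, mt-Atp and mt-Cytb, leaving out pseudogene rows. The rule gave 97 genes of 46078, of which 84 lie in the nucleus and 13 in the mitochondrial genome. The nuclear genes comprised 37 of complex I, 4 of complex II, 8 of complex III, 18 of complex IV and 17 of complex V, and the mitochondrial genes 7 of complex I, 1 of complex III, 3 of complex IV and 2 of complex V. Complexes were assigned by gene name alone. Ndufa4 and its paralog Ndufa4l2 are thus counted with complex I and Atp5sl with complex V in all values by complex. Levels are given as CPM, counts per 1e6 of the library total after TMM scaling, and fold changes as log2 of ERβKO over WT.

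RNA-seq was made from whole, snap-frozen ovaries of 5 WT and 4 ERβKO mice of the C57BL/6J strain, labelled as untreated. The treatment text that all samples share also tells of a high-fat diet and of DPN, an agonist of estrogen receptor β, and it was not resolved whether this concerns any of these ovaries. In ERβKO mice exon 3 of Esr2, the gene of estrogen receptor β, was deleted in the germline by a Rosa26-Cre deleter, and the WT controls were offspring without Cre. The stated age range, which covers the mice of every experiment, was 4 to 20 weeks, and estrous stage was not taken into account. The deletion removes the receptor from every cell of the mouse, so that the ovary is not the only organ changed. Esr2 itself, counted over its whole length with the exons that remain, had 59.5 to 117 CPM in WT and 52.9 to 119.6 CPM in ERβKO ovaries, so its count does not show the deletion.

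The respiratory chain passes electrons from NADH (complex I) and succinate (complex II) through complex III to oxygen at complex IV, and the protons pumped on the way drive ATP synthase, complex V. Complexes I, III, IV and V hold proteins made from both genomes, and complex II is built from nuclear genes only. The nuclear subunits are transcribed by RNA polymerase II like other nuclear genes, whereas the mitochondrial ones are cut from long transcripts of the mitochondrial DNA. In the ovary, the inner mitochondrial membrane is also the site where steroid-producing cells make pregnenolone from cholesterol.

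The counts ranged from 12353740 to 18717510 per library, and the common biological coefficient of variation was 0.179. On the first principal component of all genes, with 35.9% of the variance, the score of WT replicate 2 was 9.43, where those of the remaining WT libraries were -43.8 to -15.6 and those of ERβKO libraries 19.4 to 35.4. Calls of subunits that change without this ovary are given with and without it. The summed level of 10 luteal markers ran from 8945 (11031 without WT replicate 2) to 21540 CPM in WT and from 7118 to 11831 CPM in ERβKO ovaries, and that of 10 granulosa markers from 2578 to 3724 and from 3360 to 4782 CPM. The summed level of 6 theca markers did not overlap, with 1695 to 2339 CPM in WT and 2514 to 5155 CPM in ERβKO ovaries. This sum rested on Aldh1a1 and Cyp17a1, with log2 fold changes of 1.05 and 2.35. Of the other tested theca markers, Ptch1 gave 0.03, Gli1 0.12 and Fdx1 -0.56, and the median of the 5 tested was 0.12. The part of the theca markers in the results below was not tested. Adipocyte markers reached 2090 CPM in ERβKO replicate 1, where the other 8 ovaries had 299 to 814 CPM. In bulk RNA, fewer cells of a type and less RNA per cell cannot be told apart.

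Several mitochondrial genes have copies in the nucleus, which bear on where their fragments can be placed. The genome GRCm38 holds on chromosome 1, between 24611535 and 24616197 on the minus strand, 7 annotated pseudogenes that match mitochondrial subunit genes at 99% identity or more over at least 100 bp. A fragment from such a stretch can be placed at both loci, and how the authors counted fragments with more than 1 place is not stated in the sources used here. A pair of sequences is shown because they mark where the copy begins inside mt-Co1, the catalytic core subunit of complex IV. They are the mitochondrial bases from 6381 to 6440 on the plus strand and those of the copy Gm29216 from 24616138 to 24616197 of chromosome 1 on the minus strand, from the GENCODE M21 transcripts of GRCm38, with the bases that differ in capitals.
mt-Co1: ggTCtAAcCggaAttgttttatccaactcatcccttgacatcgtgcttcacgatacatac
Gm29216: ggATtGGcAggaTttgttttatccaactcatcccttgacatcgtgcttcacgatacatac
Counted from 1 at the first base of mt-Co1, the differences were T1056A, C1057T, A1059G, A1060G, C1062A and A1066T, and the 479 bases after the last of them were the same in both. The copies of mt-Co2 (Gm28661), mt-Atp6 (Gm10925), mt-Co3 (Gm28437) and mt-Nd4l (Gm10222) had no difference from their mitochondrial gene over 681, 678, 783 and 294 bases. That of mt-Nd3 (Gm28438) had 1 difference in 345 bases, T3C. The copy of mt-Nd4 (Gm28439) covered 63.6% of the gene without a difference, and Gm29216 covered 31.3% of mt-Co1.

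The counts of the mitochondrial genes fell into a high and a low set. The 6 genes mt-Co1, mt-Cytb, mt-Nd1, mt-Nd5, mt-Nd4 and mt-Nd2 held 99.7% of all mitochondrial subunit counts, and their mean level per kilobase of gene in WT ovaries ran from 3212 CPM per kb for mt-Nd4 to 13189 for mt-Co1. The other 7 genes had 12.5 (mt-Nd3) to 89.5 (mt-Atp6) CPM per kb in WT. Of these 7, mt-Co2, mt-Atp6, mt-Co3, mt-Nd3 and mt-Nd4l lie almost whole in a nuclear copy (up to 99.9% of the length, for mt-Co3), while none of the 6 high genes does so over more than 63.6%. For mt-Atp8 no copy was found among annotated transcripts. It lies between mt-Co2 and mt-Atp6, where the mitochondrial genome has 233 bases between the copied parts, as many as separate their copies on chromosome 1, and it shares 43 bases with mt-Atp6. For mt-Nd6, the only subunit gene on the minus strand, no copy was found either, and it shares 14 bases with mt-Nd5 on the other strand. The low genes mt-Atp8 and mt-Nd6 had no copy found among annotated transcripts. Of the high set, mt-Nd4, the lowest per kilobase, had 63.6% of its length in a copy. The part of the copies in the low counts was not tested.

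**Figure D1:**
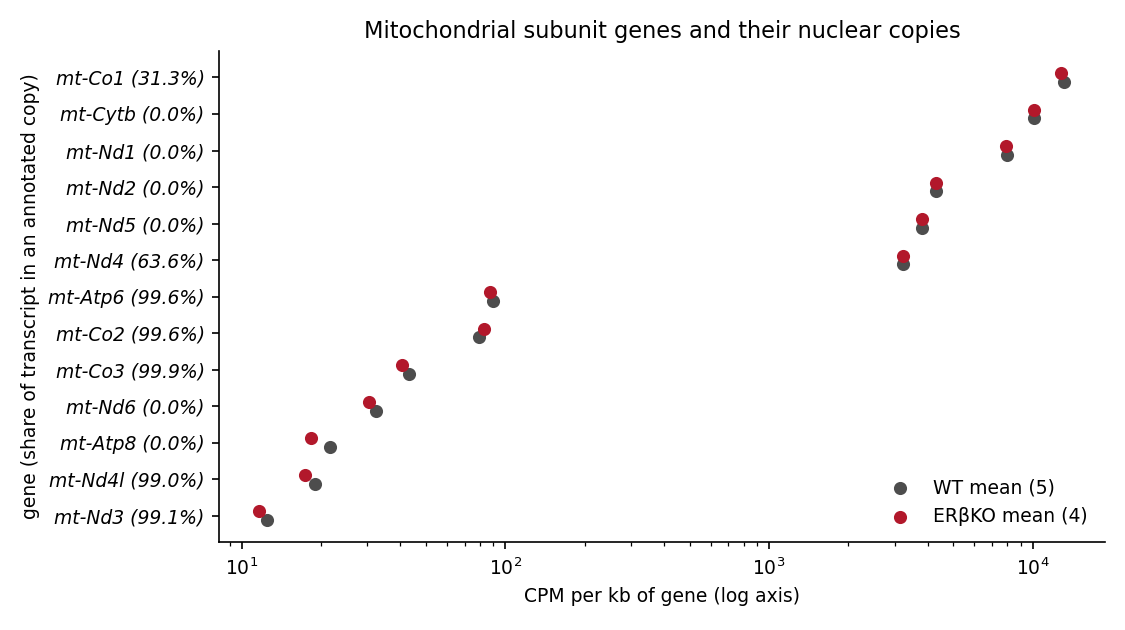
Mean CPM per kb of gene (log axis) of the 13 mitochondrial subunit genes in 5 WT (grey) and 4 ERβKO (red) ovaries, with the share of each transcript that lies in an annotated nuclear copy beside the name. In WT 6 genes lie at 3212 CPM per kb or more and 7 at 89.5 CPM per kb or less, and the genotypes lie side by side in both sets.

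No mitochondrial subunit was called different between the genotypes. None of the 13 passed edgeR's quasi-likelihood test at a Benjamini-Hochberg adjusted p under 0.05, where 2.03% of the 16722 tested genes were, and none had an unadjusted p under 0.05. DESeq2 called none of the 13 either. Their median log2 fold change was -0.032, with 9 of 13 below 0, beside -0.00089 over all genes. The values ran from -0.23 for mt-Atp8, which had 37 to 89 counts per library, to 0.07 for mt-Co2.

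mt-Co1 (ENSMUSG00000064351, chromosome M from 5328 to 6872) had 20160, 20565, 20104, 20383 and 20675 CPM in WT replicates 1 to 5 and 19226, 18779, 21142 and 20075 CPM in ERβKO replicates 1 to 4. This gave a log2 fold change of -0.04 (SE 0.060, edgeR adjusted p = 0.753). ERβKO ovaries lay on both sides of the narrow WT range. mt-Cytb, the mitochondrial subunit of complex III (chromosome M from 14145 to 15288), had 11370, 12436, 12125, 11198 and 10830 CPM in WT and 11146, 10581, 12562 and 11871 CPM in ERβKO ovaries. Its log2 fold change was -0.0065 (SE 0.073). For mt-Nd1, mt-Nd2, mt-Nd4 and mt-Nd5, membrane subunits of complex I that take part in proton pumping, the values were -0.02, 0.0031, 0.0080 and 0.0060, with SE of 0.065 to 0.097. In each of these 4 genes and in mt-Cytb and mt-Co1, ERβKO replicate 3 had the highest level of all 9 ovaries.

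The low mitochondrial genes gave wider errors. mt-Co2, a copper-binding subunit of complex IV, had 51.2 to 56.7 CPM in WT and 46.4, 52.5, 53.7 and 75.3 CPM in ERβKO ovaries, and its log2 fold change went from 0.07 to -0.09 without ERβKO replicate 4. mt-Co3, the third core subunit of that complex, had 30.4 to 35.6 CPM in WT and 29.5 to 32.6 CPM in ERβKO ovaries (log2 fold change -0.09, SE 0.072). mt-Atp6 and mt-Atp8, which belong to the membrane part of ATP synthase, gave -0.03 (SE 0.086) and -0.23 (SE 0.21). For mt-Nd3, mt-Nd4l and mt-Nd6 of complex I the values were -0.09, -0.13 and -0.10, with SE of 0.28, 0.17 and 0.18. mt-Nd3 had 2.65 to 7.60 CPM in WT ovaries, and its value became 0.20 without WT replicate 5. The groups overlapped in all 13 genes.

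Nuclear subunits were measured in 80 of 84 genes after edgeR's filter on low counts. Cox6a2, Cox7b2, Cox8b and Cox8c did not pass it. Of the 80, 1 was called, Atp5f1, which fell in ERβKO ovaries (1.25%, where 0.963% of all tested genes were called lower), and none was called higher (1.06% of all genes were). None also passed, in this edgeR fit, an absolute log2 fold change over 0.4, a further threshold of the study, which 1.83% of all genes did. The share called by edgeR was thus near that of all genes. The study set its thresholds on DESeq2 results, and no count by DESeq2 at both thresholds is given here. Uqcrfs1 and Ndufc2, which DESeq2 called, had edgeR log2 fold changes over 0.4 in size. At an unadjusted p under 0.05, 20 of 80 were lower (25%, where 10.0% of all genes were) and none was higher (9.81%). The median log2 fold change was -0.084, with 63 of 80 below 0, where 50.1% of all genes were, and the quartiles were -0.16 and -0.020. In 5 of 80 genes each ERβKO ovary lay below each WT ovary (6.25%, where 4.04% of all genes did), and in none above (3.92%).

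**Figure D2:**
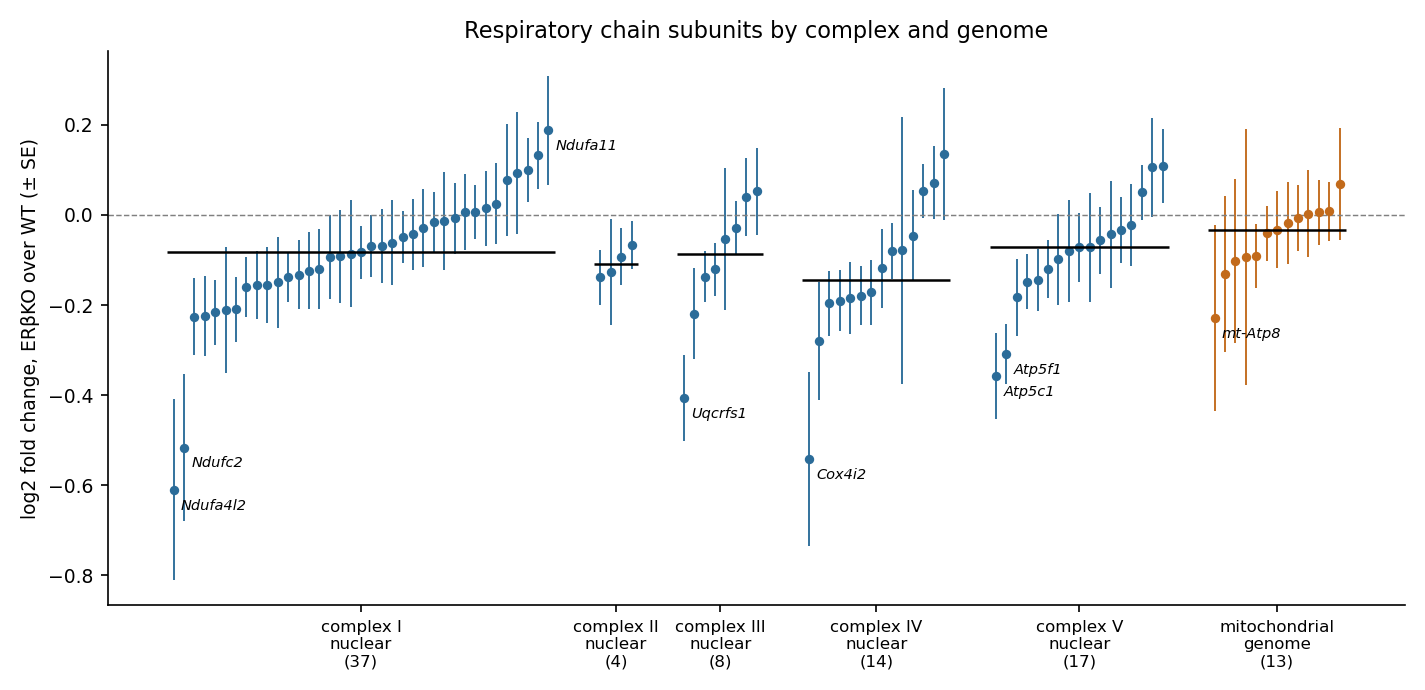
Log2 fold change of ERβKO over WT with its standard error for the 93 subunits tested (4 ERβKO and 5 WT ovaries), in rising order within each nuclear complex (blue) and for the mitochondrial genome (orange), with a black line at the median. The medians of the nuclear complexes lie between -0.15 and -0.072, that of the mitochondrial genome at -0.032, and most error bars of the latter reach 0.

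The median was below 0 in each of the nuclear complexes, and differences between complexes were not tested. The medians were -0.083 for complex I (37 genes, 28 below 0), -0.11 for complex II (4 of 4 below 0), -0.087 for complex III (6 of 8), -0.15 for complex IV (11 of 14) and -0.072 for complex V (14 of 17). The summed level of complex V, the most counted, was 3129, 2911, 3137, 2884 and 3298 CPM in WT and 2694, 2789, 3008 and 2846 CPM in ERβKO ovaries. The sums of all 5 complexes overlapped between the genotypes, with ERβKO replicate 3 inside the WT range in each. This ovary was the highest of the 4 ERβKO ovaries in 55 of 80 nuclear genes, and ERβKO replicate 1 was the lowest in 39. The WT coefficient of variation of the nuclear subunits was 8.07% in the median and ran from 2.09% (Ndufv3) to 32.2% (Cox7a1).

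Of the 37 nuclear genes named for complex I, the NADH dehydrogenase, none was called and 8 had an unadjusted p under 0.05, all lower. These 8 include Ndufa4, which is known as a subunit of complex IV, and its paralog Ndufa4l2. Ndufc2, a small accessory subunit (ENSMUSG00000030647, chromosome 7 from 97400003 to 97407802), had 37.6, 34.9, 37.5, 56.4 and 57.0 CPM in WT and 28.8, 28.8, 34.3 and 33.1 CPM in ERβKO ovaries. The genotypes did not overlap, but WT replicates 4 and 5, whose libraries are numbered above 200 in the labels, stood apart from the other 3. The log2 fold change was -0.52 (SE 0.16, edgeR adjusted p = 0.124), and -0.22 (adjusted p = 0.356) without these 2 libraries. Ndufv2, an iron-sulfur subunit of the NADH-oxidising arm named after its values were seen, had 86.2, 88.7, 88.1, 90.8 and 101 CPM in WT and 69.9, 81.2, 84.8 and 79.0 CPM in ERβKO ovaries, again without overlap (log2 fold change -0.21, SE 0.072, edgeR adjusted p = 0.150).

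Among the nuclear core subunits, Ndufs1 gave -0.16 (SE 0.067), while Ndufs3, Ndufs7, Ndufs8 and Ndufv1 gave -0.014 to 0.015. The smallest p in the other direction belonged to Ndufb10, an accessory subunit of the membrane arm, with 40.4 to 47.0 CPM in WT and 46.1 to 53.8 CPM in ERβKO ovaries (log2 fold change 0.13, SE 0.074, edgeR adjusted p = 0.353).

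Complex II, succinate dehydrogenase, is also an enzyme of the citric acid cycle. Sdha, its flavoprotein, had 424, 393, 411, 392 and 413 CPM in WT and 388, 373, 407 and 385 CPM in ERβKO ovaries (log2 fold change -0.07, SE 0.053). Sdhd, a membrane anchor (ENSMUSG00000000171, chromosome 9 from 50596338 to 50603849), had 85.4, 83.6, 88.5, 79.9 and 90.9 CPM in WT and 75.3, 73.1, 81.1 and 81.8 CPM in ERβKO ovaries. The genotypes overlapped through WT replicate 4 (log2 fold change -0.14, SE 0.060, edgeR adjusted p = 0.238). No gene of this complex was called.

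Complex III passes electrons from ubiquinol to cytochrome c. Uqcrfs1, its Rieske iron-sulfur protein (ENSMUSG00000038462, chromosome 13 from 30540308 to 30545362), had 73.0, 58.8, 69.8, 60.1 and 77.1 CPM in WT and 54.3, 45.7, 53.3 and 51.2 CPM in ERβKO ovaries. Every ERβKO ovary lay below every WT ovary. The log2 fold change was -0.41 (SE 0.095, adjusted p = 0.0569 with edgeR and 0.00510 with DESeq2). Uqcrb, the nuclear gene of this complex with the highest level per kilobase (170.1 CPM per kb in WT), had 125 to 168 CPM in WT and 110.5 to 143 CPM in ERβKO ovaries (log2 fold change -0.22, SE 0.10, edgeR adjusted p = 0.260). Uqcrc2, a core protein of the part that faces the matrix, had 194 to 214 CPM in WT and 180 to 195 CPM in ERβKO ovaries (log2 fold change -0.14, SE 0.056, edgeR adjusted p = 0.214), and its partner Uqcrc1 gave -0.03 (SE 0.060). Uqcr11 gave 0.05 (SE 0.097), and -0.04 without ERβKO replicate 3.

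Of the 14 tested nuclear genes of complex IV, cytochrome c oxidase, none was called and 6 had an unadjusted p under 0.05, all lower. Several subunits of this complex exist as a ubiquitous and a tissue-restricted form, and the levels per kilobase separated these forms clearly. In WT ovaries Cox4i1, the ubiquitous form of subunit 4, had 157 CPM per kb and Cox4i2, the form known from lung, 4.36. Cox6b1 had 193 and the testis form Cox6b2 6.12, Cox7a2 had 72.6 and the muscle form Cox7a1 4.27, and Cox6a1 had 130.5 and the muscle form Cox6a2 0.322 CPM per kb. Cox8a had 139.7 and Cox8b 0.275 CPM per kb, and Cox8c had 5 counts in WT replicate 4 and 0 in the other 8 ovaries. Cox7b2 was not detectable at this depth, with 0 counts in all 9 ovaries, which allows up to 3 counts in each, beside 76.6 CPM per kb for Cox7b.

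Between the genotypes, Cox4i2 had 3.64, 2.68, 3.35, 3.34 and 4.18 CPM in WT and 2.31, 2.88, 1.94 and 2.24 CPM in ERβKO ovaries, while Cox4i1 had 236 to 258 and 236 to 274 CPM. The log2 fold changes were -0.54 (SE 0.19, edgeR adjusted p = 0.163) and 0.05 (SE 0.060). Ndufa4l2, a low-level paralog of Ndufa4, had 6.20, 3.34, 5.45, 6.27 and 5.93 CPM in WT and 3.58, 3.87, 3.34 and 3.39 CPM in ERβKO ovaries. WT replicate 2 alone overlapped the ERβKO ovaries, with a log2 fold change of -0.61 (SE 0.20, edgeR adjusted p = 0.134) and of -0.75 (adjusted p = 0.0212) without it. Cox4i2 and Ndufa4l2 are both known from pericytes, the mural cells of small vessels. The 9 markers of smooth muscle and pericytes summed to 2326 to 3621 CPM in WT (up to 3072 CPM without WT replicate 2) and 2148 to 2666 CPM in ERβKO ovaries. Of these 9 markers 7 lay below 0 with a median of -0.18, none was at 0 counts in either genotype, and 1 was called, the pericyte marker Pdgfrb (log2 fold change -0.59, SE 0.13, edgeR adjusted p = 0.0487). The part of these cells in the 2 subunits was not tested.

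Ndufa4, named for complex I but known as a subunit of complex IV, had 87.3 to 101 CPM in WT and 75.7 to 90.0 CPM in ERβKO ovaries (log2 fold change -0.22, SE 0.073, edgeR adjusted p = 0.142).

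The other ubiquitous forms lay close to 0 or a little below it. Cox6b1 gave -0.19, Cox7a2 -0.17, Cox7b -0.18 and Cox8a -0.19, with SE of 0.065 to 0.080 and edgeR adjusted p-values of 0.160 to 0.236. Cox6a1 gave -0.05 (SE 0.10) and Cox7a2l, known from respirasome assembly, 0.07 (SE 0.081). Of the tissue-restricted forms, Cox6b2 gave 0.14 (SE 0.15) and Cox7a1 -0.08 (SE 0.30). The call of each of these genes was the same in every fit tried, except for Ndufa4l2.

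ATP synthase held the called gene. Atp5f1 (ENSMUSG00000000563, chromosome 3 from 105942698 to 105960099), subunit b of the stalk that holds the catalytic head in place, had 263, 250.4, 262, 263 and 298 CPM in WT and 204, 212, 232 and 215 CPM in ERβKO ovaries. The groups did not overlap, and WT replicate 5 lay above the other 8 ovaries. The mean fell from 267 ± 18 CPM (SD, n = 5) to 216 ± 11.9 CPM (SD, n = 4). This is a log2 fold change of -0.31 (SE 0.066), whose adjusted p was 0.0447 with edgeR, close to the threshold, and 0.00109 with DESeq2. With the luteal markers as a covariate, which are described with the shares per ovary, it was -0.21 (adjusted p = 0.356). Leaving out WT replicate 2 gave -0.33 (adjusted p = 0.0240), and leaving out any other single ovary ended the call, with log2 fold changes of -0.34 to -0.27.

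Atp5c1, the γ subunit that turns inside the catalytic head, was named for its lack of overlap after its values were seen. It had 279, 224, 257, 259 and 323 CPM in WT and 215, 204, 219 and 199.9 CPM in ERβKO ovaries. Its log2 fold change was -0.36 (SE 0.095, adjusted p = 0.0803 with edgeR and 0.0136 with DESeq2). Atp5b and Atp5a1, the β and α subunits of the catalytic head, were the most counted nuclear subunits, and both overlapped between genotypes. Atp5b, named after its values were seen, had 771 to 889 CPM in WT and 726 to 774 CPM in ERβKO ovaries (log2 fold change -0.15, SE 0.061, edgeR adjusted p = 0.217). Atp5a1 (chromosome 18 from 77773729 to 77782869) had 573 to 696 and 586 to 668 CPM (log2 fold change -0.06, SE 0.075). Atp5c1, Atp5b and Atp5a1, of the same catalytic head, thus gave log2 fold changes from -0.36 to -0.06, whose differences from each other were not tested.

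Subunit c of the membrane rotor is made from 3 genes that encode the same mature protein. Atp5g3 had the highest level of them per kilobase, with 64.6 CPM per kb in WT ovaries, beside 47.7 for Atp5g2 and 11.01 for Atp5g1. These levels divide by the length of all annotated exons, 2181, 1675 and 4912 bp in that order, so the gap to Atp5g1 depends on the annotation. In mean WT CPM the 3 genes had 140.8, 79.9 and 54.1. Their log2 fold changes were 0.11 (SE 0.11), -0.14 (SE 0.068) and -0.04 (SE 0.12), with edgeR adjusted p-values of 0.636, 0.273 and 0.876. Atp5g1 and Atp5g2 share 8.72% and 16.9% of their transcript with a pseudogene. Atp5sl, which the rule takes by its name though it is known as an assembly factor of complex I, had the smallest p among the genes of complex V above 0 (log2 fold change 0.11, SE 0.082, edgeR adjusted p = 0.496). Atp5h, which belongs to the same stalk as Atp5f1, had 178 to 198 CPM in WT and 184 to 214 CPM in ERβKO ovaries (log2 fold change 0.05, SE 0.061), and Atp5o, at the top of that stalk, 131 to 157 and 127 to 137 CPM (log2 fold change -0.12, SE 0.064). Atp5j, a further gene of the stalk, had 114.3 to 143 and 121 to 138 CPM (log2 fold change -0.03, SE 0.074). The differences between the genes of the stalk were not tested.

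**Figure D3:**
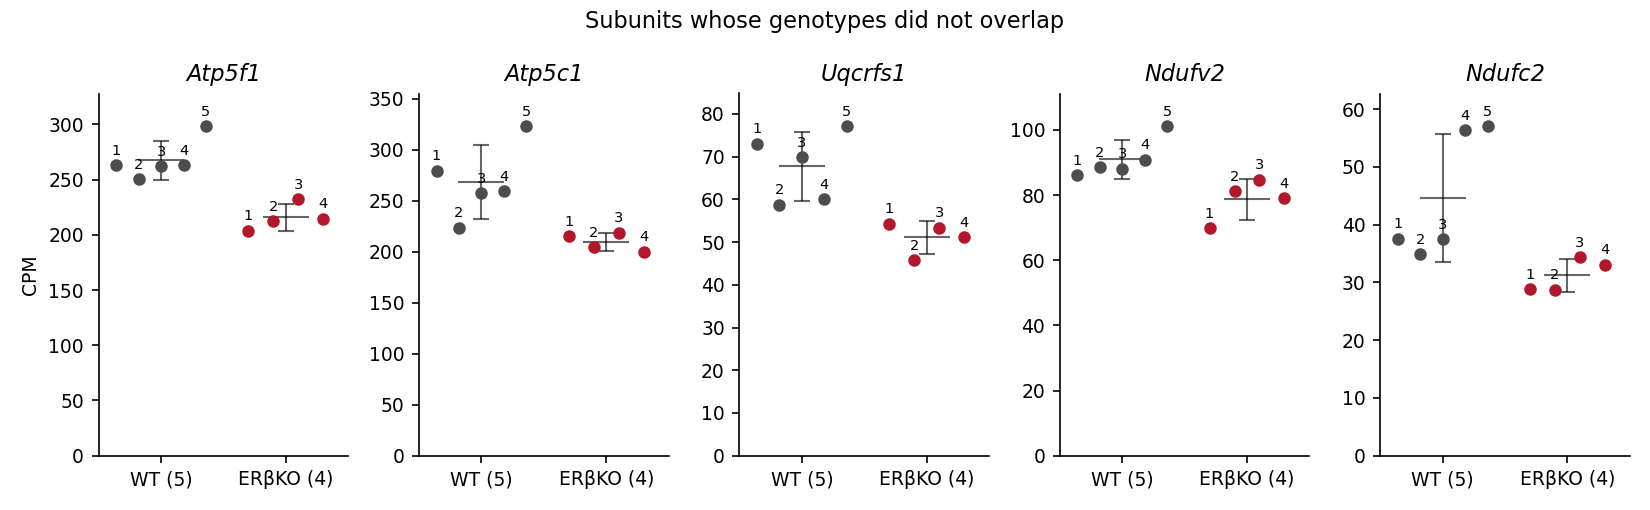
CPM in each ovary (numbered by replicate) of the 5 nuclear subunits in which every ERβKO ovary lay below every WT ovary, with the mean and SD of 5 WT (grey) and 4 ERβKO (red) ovaries. Atp5f1 fell from 250.4 to 298 CPM in WT to 204 to 232 CPM in ERβKO ovaries, and WT replicates 4 and 5 stand apart for Ndufc2.

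The count of called subunits depended on the tool and on single ovaries. DESeq2 on the same counts called 4 subunits, all lower, namely Atp5f1, Atp5c1, Uqcrfs1 and Ndufc2, where it called 3.96% of all genes lower, 3.32% higher and thus 7.28% in all. Without WT replicate 2, edgeR called these 4 and Ndufa4l2, where it called 3.55% of all genes lower and 7.23% in all. In the other 8 fits that left out 1 ovary it called none, while 11 to 22 subunits had an unadjusted p under 0.05. The share of all genes at that threshold in these 8 fits is not given here, so these counts cannot be set against it. The median of the nuclear subunits stayed between -0.12 and -0.062 in these 9 fits, and that of the mitochondrial ones ran from -0.087 to 0.027.

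Near-identical copies touched few of the nuclear genes. In 9 of the 84, a stretch of at least 100 bp matched a pseudogene or another gene at 99% identity or more, from 8.72% of the transcript in Atp5g1 to 57.4% in Atp5l. Their counts are therefore less certain than those of the others. Of these 9 genes Cox7c, with 32.9% of its transcript in copies, had an unadjusted p under 0.05 (log2 fold change -0.20, SE 0.072), and none was among the genes without overlap.

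The 2 genomes were also compared inside each library. Mitochondrial subunits took 5.33, 5.77, 5.65, 5.50 and 5.37% of all counts in WT and 5.28, 5.18, 5.97 and 5.65% in ERβKO ovaries, with means of 5.52 ± 0.184% (SD, n = 5) and 5.52 ± 0.362% (SD, n = 4). Nuclear subunits took 0.851, 0.836, 0.863, 0.822 and 0.875% of the counts outside the mitochondrial genome in WT and 0.776, 0.796, 0.838 and 0.795% in ERβKO ovaries. The means were 0.849 ± 0.0211% (SD, n = 5) and 0.801 ± 0.0264% (SD, n = 4), and the groups overlapped through ERβKO replicate 3. The ratio of mitochondrial to nuclear subunit counts was 6.62, 7.32, 6.93, 7.09 and 6.50 in WT and 7.19, 6.88, 7.59 and 7.53 in ERβKO ovaries. The mean ratio was higher by 0.403 in ERβKO ovaries (by 0.510 without WT replicate 2, whose ratio was the highest of WT), and this difference came with an SD of 0.338 in WT and 0.331 in ERβKO ovaries and with overlapping groups. These sums are descriptions of the chosen genes and were given no test.

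**Figure D4:**
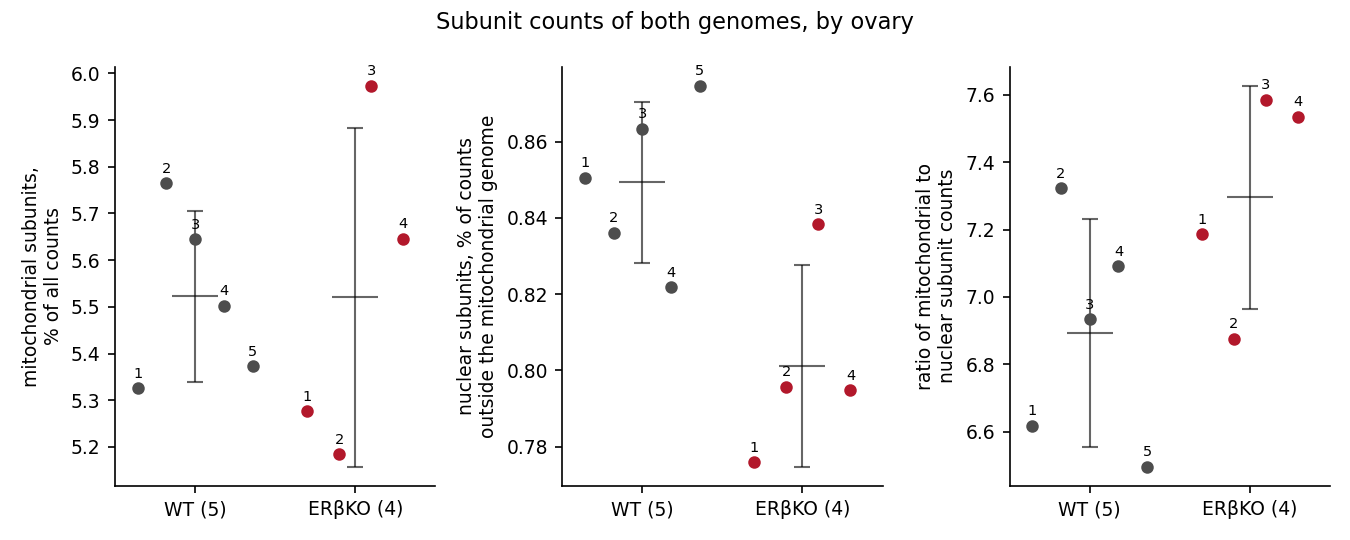
Share of all counts on the 13 mitochondrial subunits (left, percent), share of counts outside the mitochondrial genome on the 84 nuclear subunits (middle, percent) and their ratio (right) in each ovary, numbered by replicate, with the mean and SD of 5 WT and 4 ERβKO ovaries. The axes do not start at 0, and in all 3 panels the genotypes overlap.

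Luteal marker level and nuclear subunit share are given side by side, and a link between them was not tested. Within ERβKO ovaries, replicates 1, 2, 4 and 3 had 7118, 7235, 8194 and 11831 CPM of luteal markers and 0.776, 0.796, 0.795 and 0.838% of counts on nuclear subunits. Within WT ovaries, replicates 2, 3, 4, 1 and 5 had 8945, 11031, 12939, 18299 and 21540 CPM of luteal markers and 0.836, 0.863, 0.822, 0.851 and 0.875% of counts on nuclear subunits, so that the share did not follow the order of the luteal level. WT replicate 2 was near ERβKO replicate 4 in luteal level and above it in subunit share. Of the 10 luteal markers 9 had a log2 fold change below 0 (median -0.89), none of them called, and the granulosa markers had a median of 0.53. The covariate fits, chosen after seeing the data, used the mean log2 CPM of the markers and not the summed CPM above. With that of the luteal markers, 43 of 80 nuclear subunits lay below 0 with a median of -0.015, and the mitochondrial median was 0.051. With the mean of the granulosa markers as a covariate, 69 of 80 lay below 0 with a median of -0.18, and no subunit was called in either fit. Since the luteal level was also lower in most ERβKO ovaries, the contributions of genotype and luteal level cannot be told apart in 9 ovaries.

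**Figure D5:**
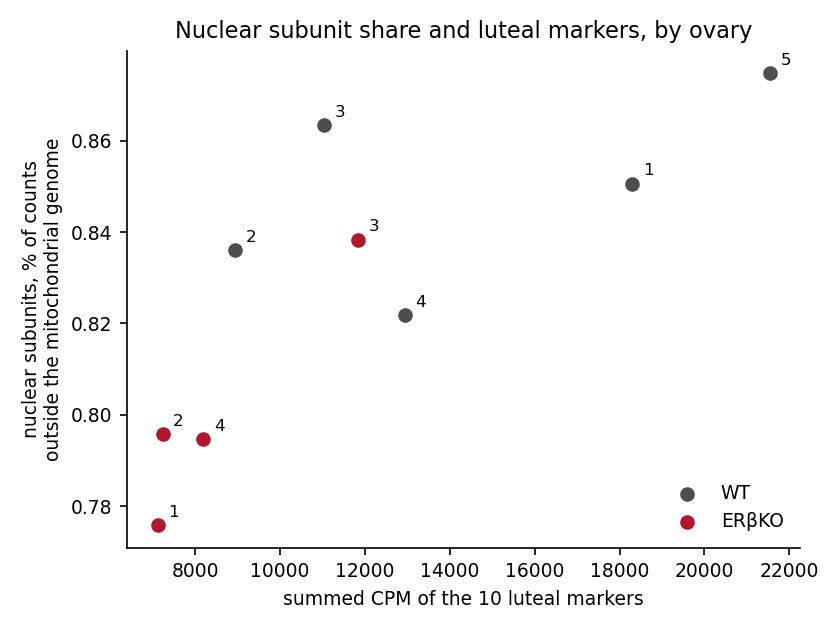
Percent of counts outside the mitochondrial genome on the 84 nuclear subunits (y axis) against the summed CPM of 10 luteal markers (x axis) in each ovary, numbered by replicate within WT (grey) and ERβKO (red). ERβKO replicates 1, 2 and 4, at 7118 to 8194 CPM, have the lowest shares, 0.776 to 0.796%, and ERβKO replicate 3, at 11831 CPM, lies among the WT ovaries.

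None of the other genes that build and run the chain, in the lists given here, was called by edgeR. The medians of these lists lay below 0, except that of the regulators of mitochondrial biogenesis. Of all genes tested, 50.1% lay below 0 and 10.0% were lower at an unadjusted p under 0.05. Of 44 tested assembly factors, 33 lay below 0 with a median of -0.066, and 7 were lower and 1 higher at an unadjusted p under 0.05. Of 76 tested proteins of the mitochondrial ribosome, 66 lay below 0 (median -0.11), 15 of them at an unadjusted p under 0.05. Of 23 genes of mitochondrial transcription and RNA stability 14 lay below 0 (median -0.037), and of 16 citric acid cycle enzymes 15 did (median -0.070). At an unadjusted p under 0.05, 5 genes of each of these lists were lower. None was higher in them or in the ribosome list. The 12 regulators of mitochondrial biogenesis had a median of 0.029, with 5 below 0. Among 6 tested carriers and subunits outside the naming rule, 4 lay below 0 (median -0.11). Usmg5, a small subunit of ATP synthase, had -0.31 (SE 0.087, edgeR adjusted p = 0.0925) without overlap. Also without overlap, 2010107E04Rik had -0.20 (SE 0.070, edgeR adjusted p = 0.160), while Cycs, the mobile carrier cytochrome c, had 0.12 (SE 0.12). In the other lists Ndufaf2, Timmdc1, Atpaf1, Tmem70, Tfam, Tefm, Pnpt1, Yy1, Mrpl11, Mrpl15 and Mrpl50 were lower without overlap too, and Cox17 was higher. Of all tested genes, 4.04% were lower and 3.92% higher without overlap.

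Promoters were read for 69 of the 84 nuclear genes, from 250 bases before to 50 after the start, as given by RefSeq on GRCm38.p6. The letters searched, on both strands, were GCGCA followed at once by TGCGC for NRF1, CCGGAAG for ETS factors, ATGGCGGC for YY1, all known from promoters of mitochondrial genes, GGTCA and TGACC with any 3 bases between them as the estrogen response element, and TCAAGGTCA for the NR5A receptors, to which LRH-1 belongs. Of the 75 windows of these genes, 6.67% held the NRF1 letters, where 0.971% of all 32851 promoters and 1.78% of the 15155 promoters of tested genes did. The ETS letters were in 21.3% (8.86% of all promoters and 14.9% of those of tested genes), and the YY1 letters in 12% (2.24% and 3.94%). None of the 75 held the estrogen response element, which 0.0700% of all promoters and 0.0132% of those of tested genes held. The NR5A letters were in 2.67% (0.423% and 0.284%), namely those of Atp5g3 and Sdhd. The promoter of Atp5f1 (chr3:105959214-105959513, minus strand) is shown as that of the called gene, and holds none of these letters. The promoter of Sdhd (chr9:50603800-50604099, minus strand) is shown as an example with 2 of them, where the capitals mark CTTCCGG, the ETS letters read on the other strand, and TGACCTTGA, the NR5A letters read on the other strand.
Atp5f1: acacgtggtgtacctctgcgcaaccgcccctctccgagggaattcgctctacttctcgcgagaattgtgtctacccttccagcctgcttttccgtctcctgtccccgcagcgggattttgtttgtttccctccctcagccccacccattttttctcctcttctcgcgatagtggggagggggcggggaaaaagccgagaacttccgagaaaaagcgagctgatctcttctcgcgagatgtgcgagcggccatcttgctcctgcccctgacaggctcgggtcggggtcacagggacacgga
Sdhd: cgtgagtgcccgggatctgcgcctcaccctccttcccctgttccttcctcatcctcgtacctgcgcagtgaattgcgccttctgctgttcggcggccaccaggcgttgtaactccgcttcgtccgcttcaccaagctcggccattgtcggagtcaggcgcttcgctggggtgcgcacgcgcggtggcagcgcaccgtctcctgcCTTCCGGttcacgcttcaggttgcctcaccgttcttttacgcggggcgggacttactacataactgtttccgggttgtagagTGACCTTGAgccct
A match of letters is a description of these windows, and binding data were not used here. The study mapped ERβ binding in mouse ovaries by ChIP-seq, where most sites lay in introns or between genes and few in promoters. Those sites were not compared with these genes. Atp5g3 and Sdhd, which share the NR5A letters, gave log2 fold changes of 0.11 and -0.14, neither of them called.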

How the data were processed

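Per the labels and the study's methods, the authors made stranded poly-A libraries from whole ovaries, mapped the reads with STAR to the mouse genome (mm10, GRCm38), and deposited raw counts per gene from featureCounts with no normalization. The deposited FPKM values of the authors, from StringTie, were read but not used, since mt-Nd1, mt-Nd2, mt-Nd4 and mt-Atp6 are listed at 0 in all 9 libraries and mt-Nd4l at 730387 or more. The strand setting of the counting is not given in the sources used here.

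The 46078 genes were filtered with edgeR's filterByExpr to 16722, scaled by TMM and fitted with genotype alone in edgeR 4.0.16 (R 4.3.3), with the quasi-likelihood test and Benjamini-Hochberg adjustment over all tested genes. A gene was called at an adjusted p under 0.05. DESeq2 1.42.0, the study's tool, was an alternative. Tables used Python 3.11.15, pandas 2.3.3 and NumPy 2.4.6, and copies were found with BLAST 2.17.0 (99% identity over 100 bp) among GENCODE M21 transcripts. Levels per kilobase use the length of all annotated exons of a gene in GENCODE M21, with overlapping exons counted once. The tests were tried on simulated counts.

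Libraries are 1 per mouse and no 2 agreed within sampling noise. The members, lists and rules were chosen with earlier results of these data known. Named with values are all mitochondrial genes, called genes, the smallest p in each direction and the highest level per kilobase of each complex, tissue-restricted paralogs with their partners, and Atp5g1 to Atp5g3. A gene that this rule names is not reported here. As alternatives, DESeq2 was run, edgeR was given DESeq2's size factors, upper-quartile factors or TMM factors without mitochondrial rows, the filter was dropped or set to 10 counts in all libraries, replicate numbers were fitted as a block, and single libraries or those numbered above 200 were left out. Fits with nuclear copies added to their mitochondrial genes, with marker covariates, and of replicates 1 to 4 without the block were chosen after seeing the data.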

Additional observations from a re-analysis of the deposited data

Results flagged for a closer look

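In 6 of 98 groups of 4 or 5 ovaries tested for a sample far from the rest, 1 ovary stood apart by Dixon's 95% criterion, which chance gives in about 1 in 20 groups. mt-Co3 was at 29.5 CPM in ERβKO replicate 1, below 32.3 to 32.6 CPM in the other ERβKO ovaries. mt-Nd6 was at 10.1 CPM in ERβKO replicate 2, below 17.3 to 18.01 CPM. Atp5f1 was at 298 CPM in WT replicate 5, above 250.4 to 263 CPM in the other WT ovaries, and Cox6a1 was at 108 CPM in the same ovary, above 84.5 to 88.8 CPM. Ndufa4l2 was at 3.34 CPM in WT replicate 2, below 5.45 to 6.27 CPM.

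The pseudogene Gm29216, the copy of part of mt-Co1 on chromosome 1, had 14203 counts in WT replicate 2, where the other WT ovaries had 160 to 288 and the ERβKO ovaries 193 to 300 counts. The other 6 copies had 39, 427, 262, 15, 274 and 581 counts in this library, inside or near the range of the other ovaries. Adding the copies to their mitochondrial genes raised the mitochondrial share of this library from 5.77 to 5.86% and left 1 subunit called.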

How the results depend on the processing

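In place of 1 called subunit, 4 were called with DESeq2, 2 with upper-quartile factors, 2 with no filter on low counts, 0 without the libraries numbered above 200, and 0 with the luteal or the granulosa marker covariate. Leaving out each replicate in turn gave 0 to 5. The share of all genes called is given above for DESeq2 and for the fit without WT replicate 2, but not for the other alternatives. The nuclear median of -0.084 became -0.015 with the luteal and -0.18 with the granulosa covariate, and -0.12 to -0.062 without single replicates. The mitochondrial median became 0.051 with the luteal covariate and -0.087 to 0.027 without single replicates. Without single replicates, the difference of ERβKO from WT in the mitochondrial share was -0.15 to 0.11 percentage points, in the nuclear share -0.061 to -0.040, and in the ratio 0.30 to 0.54. The cause of these moves was not tested.

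Replicate numbers are shared by the genotypes, but the deviations of same-numbered ovaries correlated at 0.0948, 0.130, -0.0427 and -0.0105. No pairing by number was thus seen, though so few pairs cannot exclude one. With the replicate number as a block 0 subunits were called, and 0 among the same 8 ovaries with no block. Under the block the sign turned for mt-Nd1 (0.00089), mt-Nd3 (0.21), mt-Nd4 (-0.0081), mt-Nd5 (-0.0082) and Cox6a1 (0.013).

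Of 702 values of 39 subunits, 643 kept sign and call, 10 lost and 7 gained the call, and 42 changed sign, none of them called. These values leave out some of the 21 alternatives of each subunit. Over all 21, the log2 fold change also crossed 0 for mt-Co1 (-0.086 to 0.017), mt-Nd4l (-0.23 to 0.089), Atp5a1 (-0.14 to 0.033) and Atp5g3 (-0.17 to 0.25). The sign of mt-Nd2 turned with DESeq2 (-0.00057), with its size factors (-0.00096) and without the libraries numbered above 200 (-0.0056), where mt-Nd1 (0.0020), mt-Nd3 (0.30), Cox6a1 (0.035) and Atp5g1 (0.022) also turned. Without single replicates it turned for mt-Atp6 (-0.11 to 0.025), mt-Co2 (-0.088 to 0.16), mt-Cytb (-0.042 to 0.033), mt-Nd1 (-0.087 to 0.042), mt-Nd2 (-0.092 to 0.063), mt-Nd3 (-0.22 to 0.20), mt-Nd4 (-0.033 to 0.039), mt-Nd5 (-0.045 to 0.050), mt-Nd6 (-0.16 to 0.063), Cox6a1 (-0.12 to 0.024), Cox7a1 (-0.30 to 0.12), Atp5g1 (-0.12 to 0.053) and Uqcr11 (-0.038 to 0.11).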
